A study of Mus musculus with 21 samples.

Results

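The genes described here encode enzymes that cut or crosslink the extracellular matrix, together with the inhibitors of those enzymes. They are the matrix metalloproteinases (Mmp), the tissue inhibitors of metalloproteinases (Timp1 to Timp4), the Adamts proteases with their Adamtsl relatives, and the lysyl oxidases (Lox and Loxl1 to Loxl4). The set was chosen by gene symbol alone, without any measured value, and held 50 genes with 96 probes among the 19057 named genes and 45281 probes of the Illumina MouseWG-6 V2 bead array. A gene was tested where a probe of it was well above background, with a detection p-value under 0.01, on every array of at least 1 cell line. This left 32 of the 50 genes, and 10449 genes over the whole array.

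RNA from 6 mouse cell lines was hybridised to 21 arrays. Induced neural stem cell clones 2 (iNS2, on 3 arrays), 3 (iNS3, on 4) and 5 (iNS5, on 4) were derived from Oct4-GiP embryonic fibroblasts that carry a GFP reporter of Oct4. NS (3 arrays) are neural stem cells taken as primary cells from mouse forebrain, and ES (3 arrays) are embryonic stem cells whose source label repeats that of the fibroblasts. MEF (4 arrays) are the unconverted Oct4-GiP embryonic fibroblasts with the same reporter. Ages, strains and the agents used for conversion are not stated in the labels. The series asks whether fibroblasts can be converted directly into neural stem cells that can be expanded.

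The arrays of a line are technical replicates of 1 RNA source, per the series text, so a p-value between lines measures technical spread. Only the 3 clones are separately derived lines, and each is a single clone. Fibroblast markers (8 genes, among them Col1a1, Dcn and Thy1) were well above background on every MEF array, with a summed linear level of 220.5 to 277.7 on the clone arrays, 243.4 to 253.8 on NS, 386.3 to 436.5 on ES and 69840 to 71340 on MEF. Of 7 neural stem cell markers with a probe, 6 were well above background on every clone and NS array, and Pax6 was on none. Of the same 7, 3 were above background on every MEF array and 3 on every ES array. The summed level of the 7 markers was 32560 to 39170 on the clone arrays, 39440 to 42550 on NS, 1271 to 1442 on ES and 2226 to 2358 on MEF. All 6 embryonic stem cell markers were well above background on every ES array, 2 of them on every NS array and 1 on every array of each clone. Their summed level was 68020 to 69230 on ES, 204.3 to 220.9 on NS, 185.8 to 286.7 on the clone arrays and 157.4 to 191.1 on MEF. Neuron, endothelial, oligodendrocyte and myeloid markers were mostly at background in the clones and NS, where the most of any list above background on all arrays of a line was 1 gene. In MEF, 3 of 5 myeloid markers with a probe were above background on every array, as were 1 endothelial and 1 oligodendrocyte marker. The summed myeloid level there was 378.6 to 440.9. In ES, 3 of 5 endothelial markers and 1 myeloid marker were above background on every array. The summed myeloid level in ES was 8571 to 9093, the highest of any line, with the other 4 myeloid markers above background on no array. Arrays of a line correlated at 0.9927 or higher across genes.

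Matrix metalloproteinases are zinc proteases that cut collagens, gelatin, laminins and other matrix proteins, and most are secreted as inactive precursors. Timp proteins block their active site, and the balance between protease and inhibitor sets how fast a matrix is turned over. Adamts proteases trim proteoglycans and procollagens, and lysyl oxidases crosslink collagen and elastin, which stiffens connective tissue. Fibroblasts are a main source of these proteins, whereas neural stem cells live in a brain matrix with little fibrillar collagen.

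Fewer of the tested genes were well above background in the clones, NS and ES than in MEF. Of the 32 tested genes, 15 to 18 were well above background on each clone array, 15 to 17 on each NS array, 13 to 15 on each ES array and 28 to 29 on each MEF array. On all 4 MEF arrays 28 genes were well above background, and 12 of these were on no clone or NS array. Of those 12, 8 were on no array outside MEF (Mmp3, Mmp10, Mmp13, Mmp16, Adamtsl1, Lox, Loxl3 and Loxl4). A group of 8 genes stayed above background on every array of every line: Mmp1a, Mmp14, Mmp17, Mmp24, Timp1, Timp3, Adamts4 and Adamts7. These counts are partly set by the background filter, as 11 of the 32 genes had passed it through the MEF arrays alone. Over all 45281 probes, 14407 to 14936 were above background on each MEF array and 14941 to 16021 on each other array. The matching counts over all tested genes are not given here. In bulk RNA of this kind, fewer cells that express a gene and less RNA per cell cannot be told apart.

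With the 3 clones as replicates, 25 of the 32 genes passed the test against MEF, 3 of them higher and 22 lower (limma, eBayes, two-sided, adjusted p under 0.05). Over all genes tested 47% passed, 23.8% higher and 23.2% lower. The median log2 difference, clones minus MEF, was -2.58 for the 32 genes and 0.07 for all genes. Of the 32 genes, 11 had passed the background filter through the MEF arrays alone, which is 34.4%, against 5.34% of all genes tested. The 11 genes were Mmp3, Mmp9, Mmp10, Mmp13, Mmp16, Adamts1, Adamts10, Adamtsl1, Lox, Loxl3 and Loxl4. Such a gene could only be lower in the other lines, so the direction of the count is partly set by the filter. The same holds for the direction of each of these genes where it is described below.

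Each line taken alone gave a similar count in a fit of all 21 arrays, tested with limma's treat against a 2-fold change. In iNS2 2 genes were higher than in MEF and 22 lower, where 36% of all genes passed. In iNS3 3 were higher and 21 lower, where 35.5% of all genes passed, and in iNS5 2 were higher and 23 lower, where 37.4% passed. NS had 1 gene higher and 22 lower than MEF, with 34% of all genes passing. ES had 1 higher and 24 lower, with 44.9% of all genes passing. These comparisons share the MEF arrays. The genes higher than in MEF were Timp4 in NS and every clone, Adamts19 in every clone, Adamtsl3 in iNS3 and Mmp17 in ES. With the clones as a group Mmp28 was higher also. Of these, Timp4, Adamts19, Adamtsl3 and Mmp28 had passed the background filter through lines other than MEF. Their direction was thus also partly set by the filter.

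**Figure D1:**
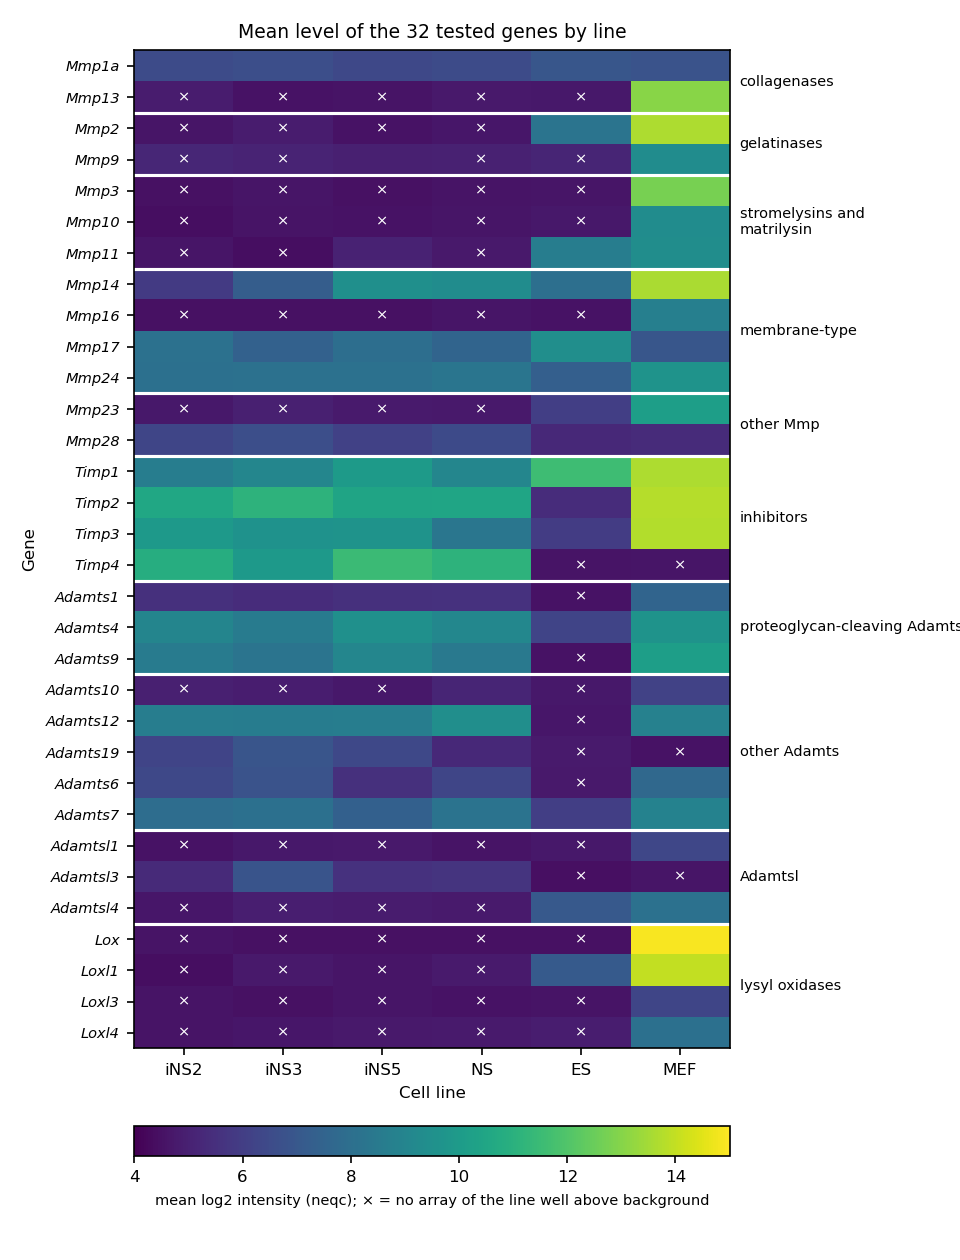
Mean log2 intensity (colour scale) of each of the 32 tested genes (rows, grouped by role) in the 6 lines (columns), with a cross where no array of the line was well above background. The MEF column is the brightest for most rows, Lox reaches 14.89 there, and the Timp4, Adamts19 and Adamtsl3 rows show crosses in ES and MEF with signal in the clones.

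The collagenases and stromelysins split between genes of one cluster. Of 9 Mmp genes of one cluster on mouse chromosome 9, in the order Mmp13, Mmp12, Mmp1b, Mmp3, Mmp1a, Mmp10, Mmp8, Mmp20 and Mmp7 (Mmp27, between Mmp8 and Mmp20, was not analysed here), MEF had Mmp13, Mmp3 and Mmp10 bright and most of the others at background. The promoter sequences of 6 of them are shown because genes bright in MEF (Mmp13, Mmp3 and Mmp10) and genes at background in every line (Mmp1b and Mmp7) carry the same short motifs, and Mmp8, also at background, lacks TGANTCA. The stretches run from 100 bases before to 19 bases after the annotated start (RefSeq, GRCm38.p6), 5′ to 3′ on the gene's own strand. Capitals mark TGANTCA and TATAAA on either strand. TGANTCA is the binding motif of AP-1, a factor known to drive collagenase and stromelysin genes, and TATAAA holds the letters of the TATA box.
Mmp13: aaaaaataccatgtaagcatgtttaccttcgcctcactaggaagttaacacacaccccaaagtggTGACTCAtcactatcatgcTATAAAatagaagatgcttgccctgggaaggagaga
Mmp3: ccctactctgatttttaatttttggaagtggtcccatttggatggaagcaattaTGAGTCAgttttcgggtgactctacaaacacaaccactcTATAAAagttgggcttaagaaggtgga
Mmp10: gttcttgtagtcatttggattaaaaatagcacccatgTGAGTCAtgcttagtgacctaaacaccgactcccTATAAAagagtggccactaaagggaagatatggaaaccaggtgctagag
Mmp1b: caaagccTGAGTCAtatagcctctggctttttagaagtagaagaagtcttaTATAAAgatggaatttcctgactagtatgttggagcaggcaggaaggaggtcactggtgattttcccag
Mmp7: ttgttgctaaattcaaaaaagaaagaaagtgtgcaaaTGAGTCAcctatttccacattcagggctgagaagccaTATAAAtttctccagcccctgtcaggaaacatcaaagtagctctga
Mmp8: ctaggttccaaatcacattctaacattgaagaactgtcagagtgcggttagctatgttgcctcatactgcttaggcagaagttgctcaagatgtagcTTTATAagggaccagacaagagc

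On GRCm38.p6 these stretches are chr9:7272414-7272533 (Mmp13, plus strand), chr9:7445722-7445841 (Mmp3, plus strand), chr9:7502242-7502361 (Mmp10, plus strand), chr9:7388007-7388126 (Mmp1b, minus strand), chr9:7691990-7692109 (Mmp7, plus strand) and chr9:7558329-7558448 (Mmp8, plus strand). In RefSeq promoter windows, which reach from 250 bases before to 50 after a start, 8 of the 9 cluster genes, all but Mmp8, held TGANTCA and 9 of 9 held TATAAA. Matches were counted at any position and on either strand. The Mmp8 match was on the opposite strand at position -3 from the start, and that of Mmp12 lay at position 4. The TATAAA count is thus one of letters and not of placed TATA boxes. Among 24 other genes of the set with such a window, 0 held TGANTCA and 3 held TATAAA. Genes without such a window were not searched, among them Lox, Loxl1, Loxl3, Mmp2, Mmp9, Mmp16 and Adamtsl1, which were bright or detected in MEF. Of all 32851 windows in the table, 7.81% held TGANTCA, 13.6% TATAAA and 1.54% both. A gene with several windows was counted where any of them held the motif. The motifs and the cluster genes were picked with the levels known, and a match describes letters, not binding.

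**Figure D2:**
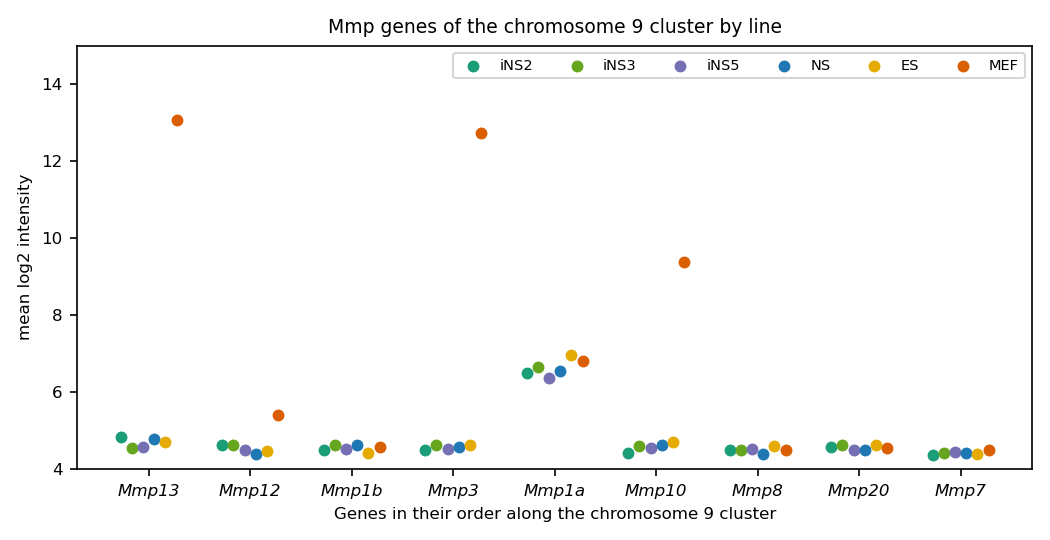
Mean log2 intensity (y axis) of the 9 Mmp genes of the chromosome 9 cluster, in their order along the chromosome (x axis, not to scale), with 1 point per line. The MEF points of Mmp13 (13.06), Mmp3 (12.73) and Mmp10 (9.37) stand far above those of the other lines, while Mmp1a lies between 6.38 and 6.96 in all lines.

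Mmp13, a collagenase that opens the fibrillar collagen triple helix, had log2 intensities between 4.47 and 5.00 on the 11 clone arrays, with a median of 4.59. It was 4.85, 4.42 and 5.04 on NS, 4.84, 4.61 and 4.63 on ES, and 13.04, 13.06, 13.14 and 12.99 on the MEF arrays. It was well above background on MEF arrays only. Relative to MEF the clones were lower by at least 202.9-fold (log2 difference -8.41 ± 0.20, SE, adjusted p = 0.000301). A fold written as "at least" sets the mean of the bright side against the dimmest detected probe of the dim arrays, and not against their unmeasured level. Where all clone arrays were at background, the clone spread behind the standard error and p-value is spread at background. A second probe of Mmp13 was also at background on all clone arrays, lower by at least 9.32-fold.

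Mmp3, stromelysin 1, which cuts proteoglycans and laminin and activates other Mmp precursors, lay between 4.36 and 4.84 on the clone arrays (median 4.52). It was 4.81, 4.47 and 4.45 on NS, 4.63, 4.63 and 4.61 on ES, and 12.73, 12.58, 12.56 and 13.02 on the MEF arrays, the only ones above background. Its level in the clones was lower by at least 161.3-fold (-8.17 ± 0.17, adjusted p = 0.000301), and its other 2 tested probes, also at background there, were lower by at least 78.8-fold and 181.6-fold. Mmp10, stromelysin 2, was at background in the clones, NS and ES and averaged 9.37 ± 0.09 in MEF (SD, n = 4 arrays), with the clones lower by at least 15.8-fold (adjusted p = 0.000469). Mmp11, stromelysin 3, differed from both, since ES also carried it.
Its mean was 8.65 ± 0.05 in ES (SD, n = 3) and 9.41 ± 0.06 in MEF (SD, n = 4), a difference that did not pass (-0.76, adjusted p = 1). For Mmp11 the clones were lower than MEF by at least 16.1-fold (adjusted p = 0.00123), with 1 of 11 clone arrays above background.

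Mmp1a, an interstitial collagenase of rodents, stood apart from the other cluster genes with 6.50, 6.64 and 6.38 in iNS2, iNS3 and iNS5, 6.53 in NS, 6.96 in ES and 6.81 in MEF (line means). No comparison passed for it, and the clones differed from MEF by -0.31 (adjusted p = 0.255). This level rests on 1 probe of 3, as the other 2 were above background on no array. Mmp12, the macrophage elastase, was above background on 2 of the 4 MEF arrays (mean 5.39) and was not tested. Mmp1b, Mmp7, Mmp8 and Mmp20 were above background on no array of any line.

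Both gelatinases fell in the clones, and they parted in ES. Mmp2, gelatinase A, which degrades denatured collagen and basement membrane, lay between 4.43 and 5.09 on the clone arrays (median 4.62) and at 4.46, 4.79 and 4.78 on NS, all at background. It was 8.12, 8.46 and 8.18 on the ES arrays and 13.63, 13.62, 13.75 and 13.52 on the MEF arrays. ES thus sat between the neural stem cells and MEF without overlap with either. Clone levels of Mmp2 were at least 302.2-fold lower than in MEF (-8.97 ± 0.20, adjusted p = 0.000301), and ES was 41.7-fold lower than MEF (adjusted p = 1.04e-17). Mmp9, gelatinase B, averaged 5.13 ± 0.17 in ES (SD, n = 3), with no array above background, and 9.35 ± 0.09 in MEF (SD, n = 4). Clone levels were at least 15.5-fold lower than in MEF (adjusted p = 0.000522), with 1 of 11 arrays above background.

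Within the membrane-type group, Mmp14 differed between the clones. Mmp14, the membrane-anchored protease that activates the Mmp2 precursor at the cell surface, was 5.96, 5.86 and 5.84 on the iNS2 arrays. It was 7.0022, 7.24, 7.23 and 7.43 on iNS3 and 9.47, 9.43, 9.65 and 9.31 on iNS5. NS had 9.46, 9.41 and 9.21, ES had 8.19, 8.01 and 7.83, and MEF had 13.63, 13.59, 13.60 and 13.53. No pair of lines overlapped except iNS5 and NS, so the order from high to low was MEF, then iNS5 with NS, ES, iNS3 and iNS2. These levels rest on the tested probe, as the other Mmp14 probe was above background on no array, MEF included. As a group the clones were 66.9-fold lower than MEF (-6.06 ± 1.45, adjusted p = 0.0316). That call was lost on the authors' scaled table (-6.17, adjusted p = 0.112), without the background filter (-6.06, adjusted p = 0.0661) and without iNS3 (-5.91, adjusted p = 0.053), while the difference stayed about as large.

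Mmp16, another membrane-type protease that can activate the Mmp2 precursor, was at background in the clones, NS and ES and averaged 8.73 ± 0.16 in MEF (SD, n = 4). Clone levels of Mmp16 were lower by at least 10.1-fold (adjusted p = 0.000497). Mmp24, a membrane-type protease known from neural tissue, was 3.00-fold lower in the clones (8.09 against 9.67, adjusted p = 0.00353). The mean of each clone lay between 8.06 and 8.11. The untested Mmp24 probes were above background on no MEF array, while some were on 2 ES arrays or 1 iNS3 array. Mmp17, anchored by a lipid tail, was higher in ES than in MEF. Its ES arrays averaged 9.45 ± 0.11 (SD, n = 3) and its MEF arrays 6.94 ± 0.05 (SD, n = 4), 5.70-fold higher in ES (adjusted p = 4.59e-13). In the clones Mmp17 averaged 7.83, a difference from MEF of 0.90 that did not pass (adjusted p = 0.0945).

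Of the remaining metalloproteinases, Mmp23 and Mmp28 were tested and moved in opposite directions. Mmp23 lay between 4.44 and 5.08 on the clone arrays (median 4.92) and at 4.46, 4.79 and 5.03 on NS. It was 5.94, 5.93 and 6.20 on the ES arrays, and 10.24, 10.12, 10.18 and 10.07 on the MEF arrays. None of the clone and NS arrays was above background, and the clones were at least 27.1-fold lower than MEF (-5.33 ± 0.19, adjusted p = 0.000469). Mmp28, epilysin, averaged 6.36 in the clones, above background on all 11 arrays, and 5.35 ± 0.51 in MEF (SD, n = 4), above background on 1 of 4. Its clone level was at least 1.61-fold higher (1.01 ± 0.26, adjusted p = 0.0387), and this was lost without iNS2 (1.05, adjusted p = 0.118), on the authors' scaled table (1.55, adjusted p = 0.0522) and without the background filter (1.01, adjusted p = 0.0562). Against a 2-fold change no single clone passed for Mmp28. The other Mmp28 probes were above background on no array of any line.

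The 4 inhibitors divided into 3 that were lower outside MEF and Timp4, which was at background in MEF and bright in the clones and NS. Timp4, the inhibitor most restricted in tissue distribution and known from brain and heart, was 10.89, 10.84 and 10.81 on iNS2, 10.18, 9.81, 9.77 and 9.93 on iNS3, and 11.50, 11.45, 11.45 and 11.63 on iNS5. NS had 11.09, 11.12 and 11.14, ES had 4.45, 4.66 and 4.67, and MEF had 4.69, 4.80, 4.38 and 4.57. All clone and NS arrays stood far above all ES and MEF arrays, which were at background. Set against MEF, the clones were at least 36.6-fold higher (6.15 ± 0.66, adjusted p = 0.00403), and NS at least 46.8-fold higher (adjusted p = 2.94e-20).

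Timp1, a secreted inhibitor with growth-promoting activity, was 8.63, 8.63 and 8.70 on iNS2, 8.92, 9.26, 8.87 and 9.16 on iNS3, and 9.88, 9.99, 9.96 and 10.07 on iNS5. NS had 9.08, 9.07 and 8.98, ES had 11.59, 11.62 and 11.58, and MEF had 13.61, 13.68, 13.64 and 13.62. ES lay between the neural stem cells and MEF, and every line stayed well above background. The clones were 21.3-fold lower than MEF (-4.41 ± 0.57, adjusted p = 0.00627), and ES was 4.13-fold lower (adjusted p = 1.16e-10). A second Timp1 probe gave -4.47 for the clones.

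Timp2, which blocks Mmp2 and also takes part in its activation by Mmp14, was 10.54, 10.64 and 10.53 on iNS2, 11.15, 11.11, 11.11 and 11.16 on iNS3, and 10.50, 10.49, 10.35 and 10.32 on iNS5. NS had 10.47, 10.51 and 10.42, ES had 5.40, 5.41 and 5.32, and MEF had 13.86, 13.80, 13.80 and 13.71. The neural lines lay between ES, which was near background, and MEF. The clones were 8.50-fold lower than MEF (-3.09 ± 0.34, adjusted p = 0.00434). ES, with 1 of 3 arrays above background, was at least 327.8-fold lower than MEF (adjusted p = 1.80e-25).

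Timp3, which binds to the matrix and also inhibits ADAM sheddases and aggrecan-cleaving Adamts proteases, was 9.88, 9.87 and 9.96 on iNS2, 9.54, 9.55, 9.63 and 9.67 on iNS3, and 9.64, 9.74, 9.62 and 9.58 on iNS5. NS had 8.41, 8.33 and 8.21, ES had 5.93, 6.32 and 5.62, and MEF had 13.75, 13.68, 13.70 and 13.73. All clone arrays lay above all NS arrays and below all MEF arrays. The clones were 15.99-fold lower than MEF (-3.999 ± 0.21, adjusted p = 0.000793), NS was 42.1-fold lower (adjusted p = 2.37e-18) and ES was 216.4-fold lower (adjusted p = 2.65e-21). The second tested Timp3 probe was dimmer, with a mean of 5.47 in the clones, 4.82 in NS, 4.53 in ES and 8.10 in MEF.

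**Figure D3:**
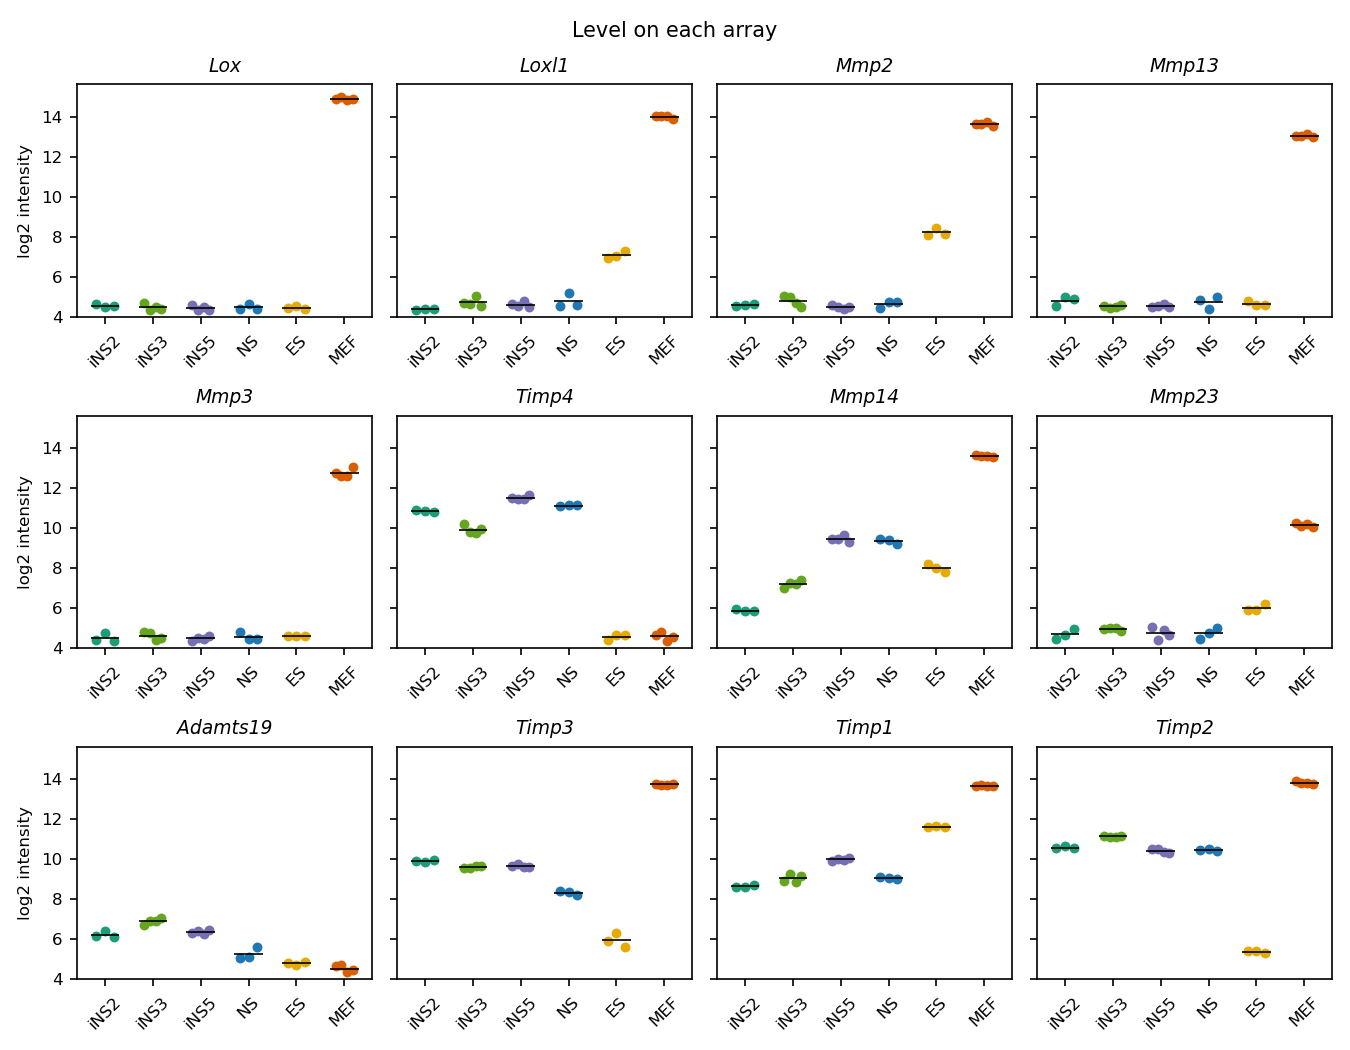
Log2 intensity (y axis) of 12 genes on each of the 21 arrays (points) by line (x axis), with the line mean as a bar. The Lox, Loxl1, Mmp2, Mmp13, Mmp3 and Mmp23 arrays stand high in MEF, Timp4 stands high in the clones and NS, and Mmp14 runs from 5.89 in iNS2 to 9.47 in iNS5 among the clones.

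The Adamts proteases were less uniform. Of the proteoglycan-cleaving members, 3 were tested, and Adamts1 and Adamts9 were lower in the clones than in MEF while Adamts4 did not pass. Adamts1, a versican-cleaving protease, averaged 5.48 in the clones with 6 of 11 arrays above background and 7.55 ± 0.10 in MEF (SD, n = 4), with the clones lower by at least 3.94-fold (adjusted p = 0.00216). Adamts9, another versican-cleaving protease, was 2.91-fold lower in the clones (8.62 against 10.16, -1.54 ± 0.36, adjusted p = 0.0293). The Adamts9 call was lost in 5 of the alternatives, with differences of -1.36 to -1.60 and a highest adjusted p of 0.0951 without iNS2. Adamts4, an aggrecanase, averaged 9.04 in the clones and 9.65 in MEF (-0.61 ± 0.40, adjusted p = 0.277).

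In ES these proteoglycan-cleaving proteases were lowest. Adamts4 averaged 6.27 ± 0.38 in ES (SD, n = 3), 10.4-fold lower than MEF (adjusted p = 1.69e-13). Adamts9 was at background on all ES arrays and at least 26.9-fold lower than MEF (adjusted p = 6.58e-21). Adamts12, which cuts cartilage oligomeric matrix protein, was also at background in ES, at least 10.6-fold lower than MEF (adjusted p = 1.07e-19). In the clones and NS, Adamts12 stayed near the MEF level, at 8.65 in the clones, 9.46 ± 0.03 in NS (SD, n = 3) and 8.81 ± 0.09 in MEF (SD, n = 4), and its difference from MEF did not pass in the clones (adjusted p = 0.442).

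Adamts19 was the only Adamts protease to pass as higher in the clones. It was 6.16, 6.43 and 6.12 on iNS2, 6.70, 6.92, 6.89 and 7.07 on iNS3, and 6.30, 6.41, 6.28 and 6.49 on iNS5. NS had 5.09, 5.12 and 5.59, with 1 of 3 arrays above background, while ES (4.81, 4.73 and 4.86) and MEF (4.65, 4.71, 4.36 and 4.46) had none. The clone arrays lay above those of every other line. Over MEF the clones were at least 1.91-fold higher (1.96 ± 0.32, adjusted p = 0.0117), and the levels are low in all lines. Adamts19 had passed the background filter through the clone arrays alone, so it could only be higher there than in MEF. Its other probe was above background on no array.

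Adamts10, a protease that binds fibrillin microfibrils, was at background in the clones and averaged 6.17 ± 0.18 in MEF (SD, n = 4), with the clones lower by at least 1.72-fold (adjusted p = 0.00832). Adamts6 and Adamts7 did not pass with the clones as a group, with -1.47 ± 0.55 (adjusted p = 0.0931) and -1.09 ± 0.33 (adjusted p = 0.0563). In single clones, Adamts6 was 4.55-fold lower than MEF in iNS5 (adjusted p = 1.35e-08) and 2.53-fold lower in iNS2 (adjusted p = 0.0209), the iNS2 call being lost without MEF replicate 4 or iNS2 replicate 3, with median scaling and with the mean of both Adamts6 probes. Adamts7, which also cuts cartilage oligomeric matrix protein, was 2.81-fold lower in iNS5 (adjusted p = 5.34e-05), a call lost with median scaling.

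Adamtsl proteins share the ancillary domains of Adamts proteases and lack the protease domain. Adamtsl4, which binds fibrillin, averaged 4.81 in the clones and 4.80 ± 0.13 in NS (SD, n = 3), at background in both. It reached 7.06 ± 0.24 in ES (SD, n = 3) and 8.09 ± 0.09 in MEF (SD, n = 4). Clone levels of Adamtsl4 were lower than in MEF by at least 6.50-fold (adjusted p = 0.000984), whereas the ES difference of -1.03 did not pass against a 2-fold change (adjusted p = 0.787). Adamtsl1 was at background outside MEF, where it averaged 6.32, and the clones were lower by at least 1.91-fold (adjusted p = 0.00426). Adamtsl3 was at background in ES and MEF and averaged 6.87 ± 0.20 in iNS3 (SD, n = 4), 5.31 in iNS2, 5.58 in iNS5 and 5.66 in NS. It passed against MEF in iNS3 alone, at least 2.46-fold higher (adjusted p = 1.19e-06). Its iNS3 level was not called different from that of the other clones or NS. Adamtsl3 had passed the background filter through the iNS3 arrays alone, so it could only be higher there than in MEF. Its other probes were above background on no array.

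All 4 lysyl oxidases analysed passed as lower than MEF in the clones, NS and ES. Lox, Loxl3 and Loxl4 were well above background on MEF arrays alone, so they could only be lower elsewhere. Lox, the main enzyme that crosslinks collagen and elastin, lay between 4.36 and 4.72 on the clone arrays (median 4.53), at 4.43, 4.69 and 4.41 on NS and at 4.48, 4.59 and 4.41 on ES, on none of them above background. On the MEF arrays it was 14.89, 14.96, 14.84 and 14.89. On the linear scanner scale, with background included, this is 115.6 to 149.8 on the arrays of the other lines, against 24794.2 to 29406 on the MEF arrays. That put the clones at least 724.5-fold below MEF (-10.37 ± 0.17, adjusted p = 0.000301).

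Loxl1, needed for elastic fibre upkeep, lay between 4.37 and 5.05 on the clone arrays (median 4.57) and at 4.57, 5.23 and 4.61 on NS, all at background. It was 6.96, 7.05 and 7.29 on ES, and 14.02, 14.05, 14.05 and 13.87 on MEF. Against MEF, the clones were lower by at least 389.5-fold (-9.40 ± 0.21, adjusted p = 0.000301), and ES, which kept a measurable level, was 119.3-fold lower (adjusted p = 1.28e-18). Loxl4 and Loxl3 were at background in the clones, NS and ES, and averaged 8.05 (Loxl4) and 6.31 (Loxl3) in MEF. In the clones Loxl4 was lower by at least 6.30-fold (adjusted p = 0.000793) and Loxl3 by at least 1.89-fold (adjusted p = 0.00335).

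Few differences between the clones and forebrain NS were called, in this gene set as over all genes. With the 3 clones as replicates against NS, 0 of the 32 genes passed (limma, eBayes, two-sided), and 0.0574% of all genes passed (0.0191% higher and 0.0383% lower). At an unadjusted p under 0.05 it was 3 of the 32 genes and 5.81% of all genes. With 2 residual degrees of freedom and 6 calls among 10449 genes, this fit does not show that the clones and NS are alike. The median log2 difference, clones minus NS, was -0.05 for the 32 genes and -0.01 for all genes. In 27 of the 32 genes (84.4%) every clone lay within 2-fold of NS, as in 89.3% of all genes. Of those 27, 12 were above background on no clone or NS array, so no difference could be measured for them. The other 5 were Mmp14, Timp3, Timp4, Adamts19 and Adamtsl3.

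Against a 2-fold change with the array spread, 2 genes passed in iNS2 against NS, 1 higher and 1 lower (2.32% of all genes passed, 0.746% higher and 1.57% lower). In iNS3 against NS 1 was higher and 1 lower (2.24% of all genes, 0.947% higher and 1.29% lower), and in iNS5 against NS 0 passed (3.23% of all genes, 1.64% higher and 1.59% lower). In iNS5, 1 gene had an unadjusted p under 0.05 in limma's treat test, as did 4.43% of all genes. Mmp14, with the array values given above, was 11.1-fold lower than NS in iNS2 (-3.47 ± 0.11, adjusted p = 8.83e-13). In iNS3 it was 4.39-fold lower than NS (-2.13 ± 0.10, adjusted p = 7.59e-08). The iNS5 difference of 0.11 ± 0.10 did not pass (adjusted p = 1), so the clones did not share one Mmp14 level. With the clones as a group the difference from NS was -1.83 ± 1.45 (adjusted p = 1).

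Timp3 was 2.99-fold higher than NS in iNS2 (1.58 ± 0.11, adjusted p = 0.00159). The differences of 1.28 in iNS3 (adjusted p = 0.287) and 1.33 in iNS5 (adjusted p = 0.0827) pointed the same way and did not pass, nor did the clones as a group (1.40 ± 0.21, adjusted p = 0.345). The iNS2 call was lost with slide as a block, where the difference was 1.68 (adjusted p = 0.155), and with the mean of both Timp3 probes, where it was 1.06 (adjusted p = 1). Adamts19 was at least 2.64-fold higher than NS in iNS3 (1.63 ± 0.12, adjusted p = 0.00155). That call was lost on the arrays of slide 4 alone, where fewer arrays gave a difference of 1.80. The gene had passed the background filter through the clone arrays alone, so this direction was partly set by the filter.

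**Figure D4:**
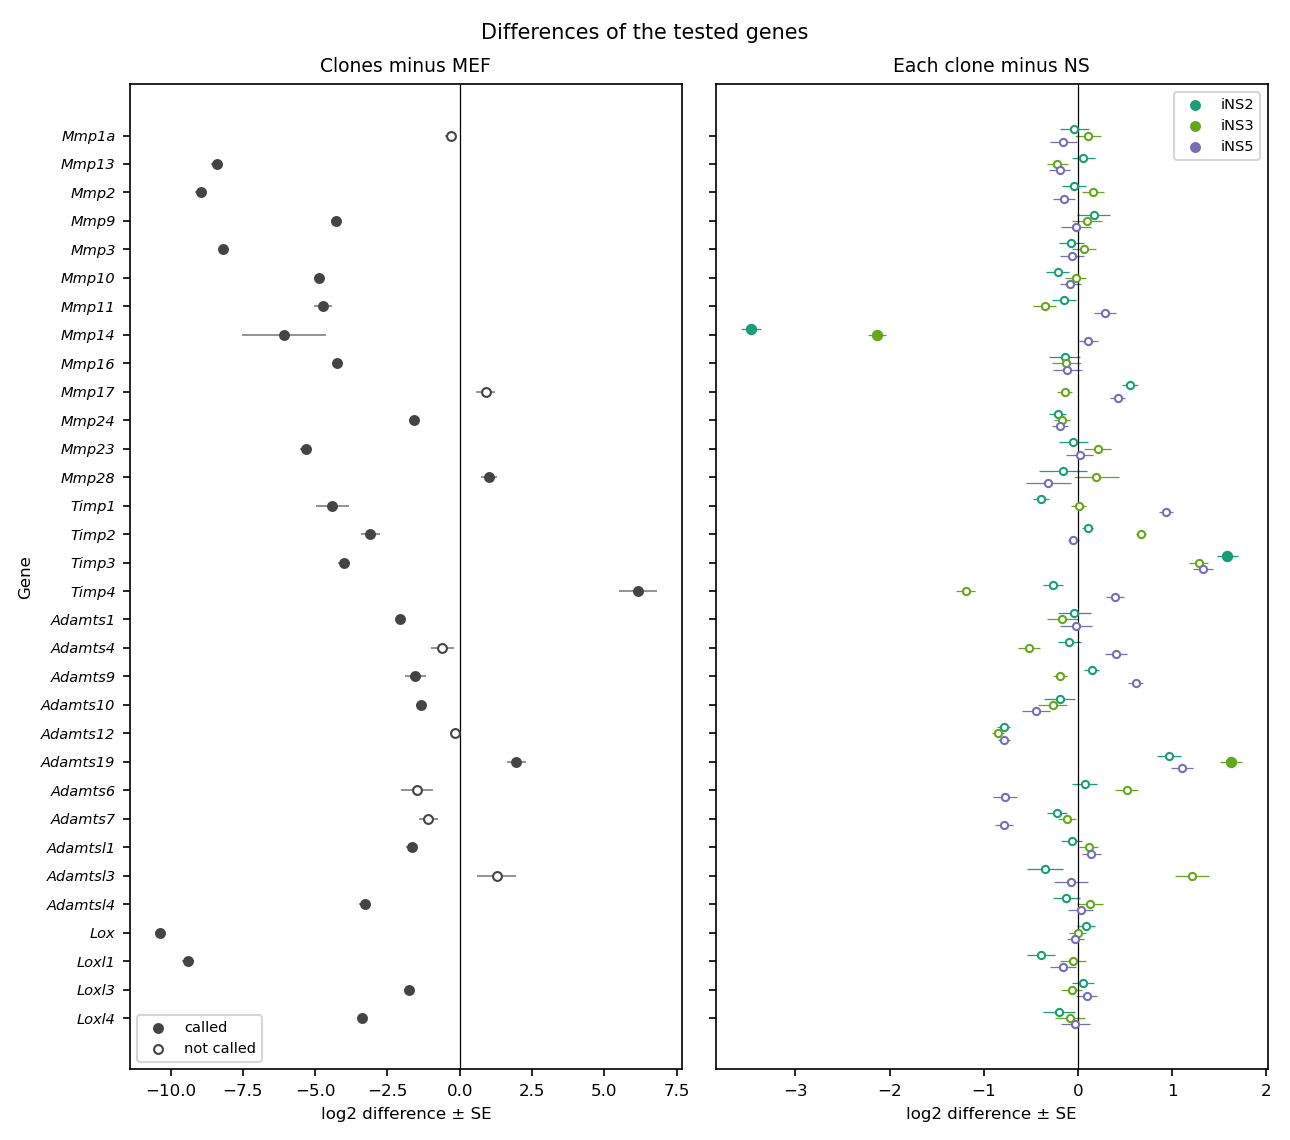
Log2 differences with standard errors (x axes) of the 32 tested genes (rows), for the 3 clones as a group minus MEF (left) and each clone minus NS (right), filled where the test was passed. The left panel spreads from -10.37 for Lox to 6.15 for Timp4, and in the right panel the filled points are Mmp14 in iNS2 and iNS3, Timp3 in iNS2 and Adamts19 in iNS3.

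Differences among the clones were few. Between iNS2 and iNS3, 0 of the 32 genes passed limma's treat test, and 0.947% of all genes passed (0.345% higher and 0.603% lower). An unadjusted p under 0.05 was found for 2 of the 32 genes and 1.62% of all genes. Between iNS2 and iNS5, 2 genes passed, both lower in iNS2 (2.04% of all genes passed, 0.622% higher and 1.42% lower). Mmp14 was 11.95-fold lower in iNS2 than in iNS5 (-3.58 ± 0.10, adjusted p = 1.61e-13), and Timp1 was 2.51-fold lower (-1.33 ± 0.08, adjusted p = 0.0118). The Timp1 call was lost with slide as a block (-1.08, adjusted p = 1) and when iNS2 replicate 1, iNS2 replicate 2 or iNS5 replicate 4 was left out (-1.29 to -1.31). These 2 clones share no slide, so clone and slide were separated only through arrays of the other lines.

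Between iNS3 and iNS5, 2 genes passed, both lower in iNS3 (3.87% of all genes passed, 1.64% higher and 2.23% lower). Mmp14 was 4.73-fold lower in iNS3 than in iNS5 (-2.24 ± 0.09, adjusted p = 3.68e-09). Timp4 was 3.00-fold lower in iNS3 than in iNS5 (-1.59 ± 0.09, adjusted p = 9.41e-05). On slide 4, which holds 1 array each of iNS3 and iNS5, the Mmp14 difference was -2.05 (adjusted p = 0.0553) and the Timp4 difference -1.57 (adjusted p = 0.154). The Timp4 call was also lost with slide as a block (-1.57, adjusted p = 0.205). Timp1 in iNS3 was 0.93 lower than in iNS5 on the log2 scale and did not pass (adjusted p = 1).

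Genes that work with these enzymes were taken from 4 lists chosen by function. Their clone counts come from the fit with the clones as replicates, in which 23.8% of all genes passed as higher and 23.2% as lower than MEF. Listed genes met the same background filter, so one that passed it through MEF alone could only be lower elsewhere. The direction of the list counts is thus partly set by the filter. Of 10 genes of the plasminogen system, a serine protease route that activates metalloproteinases, 5 were tested, and 3 were lower in the clones and 0 higher, which was not tested against the share over all genes. Plaur, the urokinase receptor, was at least 10.5-fold lower (adjusted p = 0.000979), and Plau, urokinase, at least 4.37-fold lower (adjusted p = 0.00124). Plat, the tissue-type plasminogen activator, kept a high level in the clones and in MEF, at 12.16 in the clones and 12.09 in MEF (difference 0.07, adjusted p = 0.792). In ES Plat was at least 102.4-fold lower than MEF (adjusted p = 2.59e-23), and all 5 tested genes of the list were lower there.

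Of 16 genes that process or modify collagen, 13 were tested, and 10 were lower in the clones and 0 higher (23.2% and 23.8% of all genes). Pcolce, which enhances the trimming of procollagen, was 54.3-fold lower in the clones (6.87 against 12.63, adjusted p = 0.00513). P4ha2, a collagen prolyl hydroxylase subunit, was at least 138.1-fold lower (adjusted p = 0.0041), with 4 of 11 clone arrays above background. Serpinh1, the collagen chaperone, was 3.29-fold lower (adjusted p = 0.00776) and stayed bright at 13.02 in the clones, against 14.74 in MEF. Tgm2, a crosslinking transglutaminase, was 12.3-fold lower in the clones (adjusted p = 0.00093) and did not pass in ES (1.09, adjusted p = 0.567).

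Elastic fibre genes and lysyl oxidase partners had 9 tested of 14, with 7 lower in the clones and 0 higher (23.2% and 23.8% of all genes). Mfap4, a microfibril-associated protein, was at least 36.5-fold lower (adjusted p = 0.000518), and Mfap2 at least 45.8-fold lower (adjusted p = 0.00419). Eln, elastin itself, was above background on all 11 clone arrays and on no MEF array. Eln had thus passed the background filter through lines other than MEF, so it could only be higher than in MEF. Its difference of 1.71 ± 0.62 did not pass with the clones as a group (adjusted p = 0.0879). In the array fit Eln passed as higher than MEF in iNS2 (at least 1.54-fold, adjusted p = 0.000115), iNS5 (at least 2.91-fold, adjusted p = 7.19e-11) and NS (at least 1.69-fold, adjusted p = 1.07e-05), and did not pass in iNS3 (1.02, adjusted p = 0.967).

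Of 15 activators, anchors and ADAM sheddases, 10 were tested, with 5 lower and 2 higher in the clones. Over all genes 47% passed in one direction or the other. Reck, a membrane-bound inhibitor of several Mmp enzymes, was 9.64-fold lower (adjusted p = 0.00214). Furin, the convertase that activates membrane-type Mmp precursors, was 9.35-fold lower (adjusted p = 0.0009), and Cd44, a hyaluronan receptor that anchors Mmp9 and Mmp14, 12.2-fold lower (adjusted p = 0.00819). Adam12 was 3.02-fold higher in the clones (1.59 ± 0.27, adjusted p = 0.0128) and Pcsk6, a furin relative, 2.50-fold higher (1.32 ± 0.37, adjusted p = 0.0461).

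In NS, by the array fit against a 2-fold change and not the clone fit, the same lists gave 0 higher and 3 lower (plasminogen), 0 higher and 9 lower (collagen processing), 1 higher and 7 lower (elastic fibre) and 1 higher and 5 lower (activators and sheddases), where 16.5% of all genes passed as higher and 17.5% as lower. In ES the same fit gave 0 and 5, 1 and 11, 1 and 7, and 1 and 7 in that order of lists, where 22% of all genes passed as higher and 22.8% as lower. The genes higher in ES than in MEF were Pcolce2, Ltbp4 and Pcsk6, and those higher in NS were Eln and Adam12.

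The 18 untested genes were Mmp1b, Mmp7, Mmp8, Mmp12, Mmp19, Mmp20, Mmp21, Mmp25, Adamts3, Adamts8, Adamts13, Adamts14, Adamts15, Adamts16, Adamts17, Adamts18, Adamts20 and Adamtsl2. Of these, 15 were above background on no array, and their probes' line means, with those of the other 3, lay between 4.28 and 5.39. Besides Mmp12, the exceptions were Mmp19 on 1 iNS2 array and Adamts16 on 1 iNS5 array. At background the arrays give no level, so these genes are not shown to be unexpressed. Mmp15, Mmp27, Adamts2, Adamts5, Adamtsl5 and Loxl2 were not analysed here.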

How the data were processed

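Total RNA was labelled with biotin and hybridised, 1 array per hybridisation. Per the file headers, the deposited scanner table gives for each probe and array a mean bead intensity on a linear scale with background included, a detection p-value, a bead count (18 to 81 beads per probe for this gene set, median 43) and a bead standard error. A further table of scaled intensity, also deposited by the authors, has columns that are straight-line functions of the scanner intensities (largest residual 0.1148) with column means of 379.2 and medians of 6.7 to 8.3. Its values are linear, no centring was found, and its background settings are not given in the sources used here. The submitters' processing notes name GenomeStudio without a version. Depth is expressed as probes above background per array (14407 to 16021). The median scanner intensity per array lay between 127 and 168.5, and the number of arrays and clones limits the precision.

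From the deposited intensity and detection p-value columns, log2 intensities were computed with neqc of limma 3.58.1 (R 4.3.3), with an offset of 16 and controls inferred from the detection p-values. Symbols came from the platform annotation. Of all probes 34885 had 1 symbol, 18 several and 10378 none, 34807 were matched to RefSeq, and 0 names changed. The tested probe with the highest mean represented its gene. Of the 96 probes of the set 41 were tested. Other probes of several tested genes, among them Adamts12 and Loxl1, were above background on no array. The array fit had 6 groups (15 residual degrees of freedom) and used treat against a 2-fold change. The clone fit used line means (2 residual degrees of freedom) and eBayes, with the single line on the other side assumed to vary like the clones. Both adjusted p-values by Benjamini-Hochberg over all 10449 genes, at 0.05. Where only some arrays of a dim side were above background, each was set at no less than the dimmest detected probe for its fold. On simulated data with large planted changes, both fits gave every planted change its right sign, and the array fit called most of them. Smaller changes and a clone spread as wide as that of Mmp14 were not simulated. Figures were drawn with matplotlib 3.10.9 in Python 3.11.15.

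The arrays lay on 4 slides. Slide 1 held 3 of the MEF arrays, slide 2 all of iNS2 with 3 of iNS3, slide 3 all of ES with 3 of iNS5, and slide 4 all of NS with 1 array each of MEF, iNS3 and iNS5. Values per array are given for the 8 genes with the widest clone to MEF difference, up to 3 each of those called against NS and between clones, and the 4 inhibitors (12 genes in all). Other tested members are named by role. The gene set, the lists and the tests were chosen with earlier results of these data known. Alternatives were the authors' table, median scaling, other detection filters, mean of probes, eBayes, slide as a block, single slides and leaving out arrays or clones. All value columns were mapped (0 left over).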

Additional observations from a re-analysis of the deposited data

Results flagged for a closer look

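In 59 sets of 4 arrays of 1 line in which a tested gene was above background on all 4, a single array stood away from the other 3 on 3 occasions, by Dixon's criterion. Chance flags about 1 set in 20. Adamts10 was 6.4386 on MEF replicate 1, against a median of 6.10 on the other MEF arrays. Adamtsl1 was 6.4431 on MEF replicate 4 (median of the others 6.29), and Loxl1 was 13.8702 on the same array (median of the others 14.05). MEF replicate 4 is the MEF array that lay on slide 4.

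Clones of the same origin differed in 3 genes. Mmp14 was lower in iNS2 than in iNS5 by a log2 difference of -3.5789 and in iNS3 than in iNS5 by -2.2427. Timp1 was lower in iNS2 than in iNS5 (-1.3256), and Timp4 lower in iNS3 than in iNS5 (-1.5863). Of these, the iNS2 to iNS5 difference in Mmp14 kept its call in every alternative that could be run for it, and the other 3 each lost theirs in at least 1.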

How the results depend on the processing

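No paired analysis was possible because the labels number no replicates, and numbers given in accession order pair nothing. No result reversed. Leaving out 1 array at a time gave 23 to 23 genes called for NS, 23 to 24 for iNS2, 24 to 25 for iNS3, 25 to 25 for iNS5 and 25 to 25 for ES against MEF, and leaving out 1 clone gave 23 to 27 for the clones against MEF and 0 to 0 against NS. It gave 2 to 2 for iNS2 and for iNS3 and 0 to 0 for iNS5 against NS, 0 to 1 for iNS2 against iNS3 (1 without iNS3 replicate 1), 1 to 2 for iNS2 against iNS5 and 2 to 2 for iNS3 against iNS5. With eBayes against no change, the counts were 7 for iNS2, 11 for iNS3 and 11 for iNS5 against NS, 11 for iNS2 against iNS3, 9 for iNS2 against iNS5 and 13 for iNS3 against iNS5, where 34.3% to 59.6% of all genes passed. Slide as a block gave 1 for iNS2 against NS, for iNS2 against iNS5 and for iNS3 against iNS5, and the mean of probes gave 1 for iNS2 against NS. Slide 4 alone gave 1 for iNS3 against NS and 0 for iNS3 against iNS5, with fewer arrays. The authors' table gave 1 for iNS5 against NS and 2 for iNS2 against iNS3, and median scaling 1 for iNS5 against NS. The causes of these shifts were not tested. Median scaling moved the median of all genes to between 0.13 and 0.30 against MEF, and the clone differences of Timp4, Adamts19 and Mmp28 stayed above 0 under both other scalings, the Mmp28 call being lost on the authors' table (adjusted p = 0.0522). The clone alternatives on slide were chosen after seeing the data.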
